A study of Mus musculus with 6 samples.

Results

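The receptors that bind bone morphogenetic proteins (BMPs) at the cell surface, with their co-receptors, were described probe by probe in the renal cortex of mice. The members were the non-control probes of a one-colour Agilent array whose gene name in the scanner files was Bmpr1a, Bmpr1b, Bmpr2, Acvr1, Acvr2a, Acvr2b, Acvrl1, Eng, Rgmb or Tgfbr3. This gave 24 probes for 10 genes, of 56605 non-control probes on the array. A probe was tested where every array of a group, of either group, read it well above background. This held for 19 of the 24 probes and for 29890 probes in all, and each of the 10 genes had at least 1 tested probe.

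Renal cortex RNA from 6 male mice aged 16 weeks was hybridised with 1 array per sample and 3 arrays per group. By label the mice are db/m or db/db, where db/db mice lack the signalling form of the leptin receptor and become obese and diabetic, and db/m mice carry 1 working copy. The paper's array methods and the deposited design text instead describe db/db mice on a C57BLKS/J background. These were treated with Huangqi decoction (HQD, a herbal extract) or not treated with it, with 8 weeks of treatment stated. By the paper's animal methods, db/m mice and db/db mice without HQD received the carboxymethylcellulose vehicle by daily gavage. The groups are called labelled db/m and labelled db/db here, and genotype and treatment cannot be told apart from these sources. Differences are given as labelled db/m minus the other group, on the log2 scale. The dose given to these mice is not named in the sources used here.

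BMPs are secreted dimers of the TGF-β superfamily that bring type I and type II serine/threonine kinase receptors together. The type II receptor phosphorylates the type I receptor, which in turn phosphorylates Smad1, Smad5 and Smad9, and these enter the nucleus with Smad4. Co-receptors without kinase activity, such as endoglin, betaglycan and the repulsive guidance molecules, change how ligands reach these receptors. In the kidney the pathway is known for its part in nephron formation and in the response to tubular and glomerular injury.

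Probes of the same gene read different stretches of its transcripts, and the largest differences within a gene were those of Bmpr2 and Rgmb. Their sequences are therefore shown as the scanner files give them, 5′ to 3′, as 30-base stretches of each 60-base probe, with repeats of CA and terminal runs of A in capitals. The 3 Bmpr2 probes lay on the plus strand of chromosome 1 and the Rgmb probes on the minus strand of chromosome 17 (mm9 build).
Bmpr2 A_51_P518698, bases 31 to 60, chr1:59934262-59934321: tctatgaataagtgtaagtaaatgctttga
Bmpr2 A_55_P2716027, bases 1 to 30, chr1:59912789-59912848: ccaggCACACACACACACAagcaagcaaaa
Bmpr2 A_55_P2943039, bases 31 to 60, chr1:59907509-59907567: ctgatttacgtgaaaccctgtctgAAAAAA
Rgmb A_51_P501757, bases 1 to 30, chr17:15941859-15941918: aagcaaataggctatagcttttcacgggtc
Rgmb A_66_P107960, bases 1 to 30, chr17:15940184-15940243: taagcatgtcttcccaacctctaattaatt

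The Bmpr2 probe A_55_P2716027 held 7 CA pairs in a row, and 16 of its last 20 bases were A. The Bmpr2 probe A_55_P2943039 ended in 6 A. A run of at least 5 CA or TG pairs was present in 254 of the 56605 probes on the array (0.449%), and 12 or more A in the last 20 bases in 1098 (1.94%). No member probe shared a run of 20 bases with any other probe of the array, read on either strand. The accession given for a probe matched RefSeq for 16 of the 24 probes, with the same gene symbol each time. An annotation of mm9 was not used here, so exon, intron and UTR positions are not given.

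The arrays lay on 3 slides. Slide 1 held the first array labelled db/m (replicate 1) together with labelled db/db replicate 3, and the other slides held 1 group each. Between 51.6% and 59.0% of probes were well above background, and none was saturated. For the leptin receptor (Lepr), 1 of 6 probes was tested, with a difference of 0.42 (SE 0.29, limma adjusted p = 0.447). The Lepr probe for NM_001122899 gave -1.47, -4.32 and -1.33 in the arrays labelled db/m and -3.60, -4.29 and -3.76 in those labelled db/db, so that labelled db/m replicate 2 lay with the other group at this untested probe. The tested Lepr probe gave 1.38, 1.60 and 1.18 against 0.60, 0.64 and 1.65, where replicate 2 was instead the highest of labelled db/m and labelled db/db replicate 3 was above all other arrays. Across all tested probes, labelled db/m replicate 2 also correlated more closely with labelled db/db replicate 3 (Pearson r 0.992) than with labelled db/m replicates 1 (0.982) and 3 (0.988). Nothing in the labels says that the samples came from separate litters or experiments, and p-values measure only the spread between these arrays. Markers of endothelium, podocyte, proximal tubule and stroma were each tested in full (10, 6, 6 and 6 genes), and none had an unadjusted p under 0.05. Of the 5 distal nephron markers, Slc12a3 was lower in labelled db/m (-0.91). Of the 7 leukocyte markers, Ptprc, Adgre1 and Lyz2 were higher and Cd74 was lower, and the summed level of the list was 22.6 to 27.8 in labelled db/m and 18.4 to 24.6 in labelled db/db (linear level relative to the 75th percentile). List medians were 0.11 (endothelium), -0.10 (podocyte), -0.36 (proximal tubule) and -0.04 (stroma). Proximal tubule markers summed to 514.9 to 895.7 in labelled db/m and 802.2 to 952.5 in labelled db/db on the same scale. Their mean log2 level in replicates 1, 2 and 3 was 6.16, 7.02 and 6.59 against 6.85, 7.09 and 6.92. For podocyte markers it was 0.83, 1.75 and 1.27 against 1.17, 1.58 and 1.36. The part of these markers in the receptor values was not tested.

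Most receptor probes had a small estimated difference between the groups. Of the 19 tested probes, 16 were well above background on all 6 arrays. The other 3, 1 each of Bmpr2, Eng and Rgmb, entered the test through the group in which they were higher. Over the 16 probes the differences lay between -0.27 and 1.40 (log2), their median was 0.03 beside -0.03 over all probes tested, and 13 of them differed by under 0.3 in either direction. An unadjusted limma p under 0.05 was reached by 3 of the 19 probes, against 17.7% of all probes. All 3 were higher in labelled db/m, among them the Bmpr2 probe that entered the test through that group. Higher was the direction of 6.9% of all probes, and none was lower, the direction of 10.8%. This direction depended on the scaling, since 1 probe was higher and 1 lower with quantile normalization and with the deposited table, and 2 were higher and 2 lower with median centring. Among the 16 probes never dim, 2 passed, against 17.8% of all such probes. Both were higher, a direction taken by 5.88% of such probes, and none was lower, against 11.9%. A difference of at least 1 together with that p was reached by 1 probe, of Bmpr2, against 0.96% of all probes. At 4 of the 19 probes the values of the groups did not overlap, against 24.1% of all probes, and at 3 of the 16. With Benjamini-Hochberg adjustment over all probes, limma gave 0 probes an adjusted p under 0.05, among the receptors as on the whole array, where 5282 probes had an unadjusted p under 0.05. The lowest adjusted p of a receptor probe was 0.240.

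Taking the brightest tested probe of each gene, none of the 10 genes had an unadjusted p under 0.05, and the differences ranged from -0.16 (Acvr2a) to 0.45 (Tgfbr3) with a median of 0.02. The levels below are log2 intensities relative to the 75th percentile of each array, given for replicates 1, 2 and 3 of labelled db/m and then of labelled db/db. They compare arrays for 1 probe and do not rank probes or genes. In whole cortex, fewer cells of a type and less RNA per cell cannot be told apart.

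Among the type I receptors, Bmpr1a encodes ALK3, a widely expressed BMP receptor kinase. Its brighter probe (A_55_P2800631, NM_009758, chromosome 14, 35224571 to 35224630) gave 1.60, 1.51 and 1.63 in labelled db/m and 1.67, 1.68 and 1.67 in labelled db/db. Every array labelled db/m was lower, but by little, with a difference of -0.09 (SE 0.10, 95% interval -0.32 to 0.14, limma adjusted p = 0.614). The dimmer probe, 36398 bases away at 35260969 to 35261028, gave -2.62, -2.11 and -2.24 against -2.49, -2.56 and -2.54. These values overlapped, with a difference of 0.21 (SE 0.15, adjusted p = 0.468). Without labelled db/m replicate 1 it was 0.36 (SE 0.12, limma adjusted p = 0.334). The unadjusted p was then under 0.05, as for 14.0% of all probes in that setting.

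Bmpr1b encodes ALK6, a type I kinase best known from cartilage and ovary. Its single probe (A_66_P136389, NM_007560, chromosome 3, 141503374 to 141503433) gave -1.92, -2.60 and -1.58 in labelled db/m and -2.52, -0.52 and -2.92 in labelled db/db. Labelled db/db replicate 2 stood above all other arrays, at an intensity of 604.4 beside 157.1 and 124.5 in the other arrays of its group. The difference was -0.04 (SE 0.62, 95% interval -1.53 to 1.44), and it was 0.69 without that array. This was the widest interval among the brightest probes, so a change of over 2-fold in either direction was within it.

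Acvr1 encodes ALK2, a type I receptor for BMPs that is mutated in heritable ectopic bone formation. Its brightest probe (A_55_P2159710, NM_001110204, chromosome 2, 58298937 to 58298996) gave 1.39, 1.29 and 1.47 against 1.30, 1.49 and 1.29. The groups overlapped almost fully, with a difference of 0.02 (SE 0.11, 95% interval -0.25 to 0.29, adjusted p = 0.917). A second probe, 643 bases away, gave -0.40, -0.50 and -0.30 against -0.22, -0.14 and -0.48, a difference of -0.12 (SE 0.13, adjusted p = 0.612). The third Acvr1 probe (A_55_P2159705, ENSMUST00000145495, 58295955 to 58296014) was dim (not well above background) on all 6 arrays, at intensities of 10.3 to 13.4.

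Acvrl1 encodes ALK1, the endothelial type I receptor for circulating BMP ligands. Its brighter probe (A_55_P2011380, NM_001277255, chromosome 15, 100974010 to 100974069) gave 0.86, 0.29 and 0.83 in labelled db/m and 0.55, 0.45 and 0.43 in labelled db/db. Labelled db/m replicates 1 and 3 were above every array labelled db/db, whereas replicate 2 was below them all. The difference was 0.19 (SE 0.17, 95% interval -0.23 to 0.60, adjusted p = 0.561). Without labelled db/m replicate 2 it was 0.37 (SE 0.11, limma adjusted p = 0.148). The unadjusted p was then under 0.05, as for 23.2% of all probes in that setting. The other probe (A_52_P279329, NM_009612) reads 60 bases that span 293 bases of the genome, 100967514 to 100967806. It gave -2.62, -3.001 and -2.54 against -2.77, -2.77 and -2.94, with replicate 2 again the lowest of labelled db/m, and differed by 0.11 (SE 0.15, adjusted p = 0.709).

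Of the type II receptors, Bmpr2 is the BMP-specific one, with a long cytoplasmic tail, and loss of 1 copy causes heritable pulmonary arterial hypertension. The brightest probe (A_51_P518698, NM_007561) gave 2.89, 2.81 and 2.92 in labelled db/m and 2.97, 3.05 and 2.84 in labelled db/db. These arrays overlapped, and the difference was -0.08 (SE 0.11, 95% interval -0.34 to 0.18, adjusted p = 0.686). The probe with the CA repeat (A_55_P2716027, ENSMUST00000186246), placed 21473 bases upstream, gave 0.31, -0.68 and -0.40 against -1.62, -2.35 and -0.99. All arrays labelled db/m lay above all arrays labelled db/db, and intensities were 1280, 476.6 and 726.2 against 294.2, 170.5 and 473.8. The nearest values were those of replicate 2 of labelled db/m and replicate 3 of labelled db/db.

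The CA-repeat probe of Bmpr2 was 1.40 higher in labelled db/m (SE 0.39, 95% interval 0.47 to 2.32), that is 2.63-fold (1.38 to 5.01), with a limma adjusted p = 0.240. It was the member probe past the fold and p thresholds. Leaving out each array in turn gave differences of 1.05 to 1.73, and the pair of arrays on slide 1 differed by 1.31. The third Bmpr2 probe (A_55_P2943039, ENSMUST00000190659) gave -3.88, -3.35 and -3.40 against -3.66, -4.52 and -4.43. Its groups overlapped, and 1 of the 3 arrays labelled db/db was well above background. The difference was 0.66 (SE 0.26, adjusted p = 0.274). It was 0.39 (adjusted p = 0.361) when dim spots were raised to at least the weakest signal their array read as well above background.

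The change of the CA-repeat probe was set against that of the brightest Bmpr2 probe within each array. The within-array difference had a mean of -4.61 in labelled db/db and -3.13 in labelled db/m, a difference in change of 1.48 in which the groups did not overlap. The exact two-sided permutation test gave p = 0.1, the smallest that 3 arrays against 3 allow, and 0.3 after adjustment over the 9 probe pairs compared. The third Bmpr2 probe differed from the brightest in its change by 0.74 (exact permutation p = 0.2). No pair could have reached 0.05 in this test.

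Among tested probes with at least 5 CA or TG pairs in a row, 215 in number, the median difference was -0.11, and 5 were past the fold and p thresholds (2.33%), all higher in labelled db/m. Among the 631 tested probes with 12 or more A in their last 20 bases, 9 were past the thresholds (1.43%), again all higher. Over all probes tested, 234 were past the thresholds as higher and 53 as lower, together 0.96%. The median log2 level was 2.90 in the CA or TG set, 0.21 in the set rich in A and -0.24 over all probes tested. These shares therefore compare probes of unlike brightness. The CA-repeat probe of Bmpr2 is itself in both of these sets and among the 5 and the 9. The part of these sequence features in the Bmpr2 value was not tested. The probes most like the CA-repeat probe over the 6 arrays were those of Trpc6 (Pearson r 0.998), Gm12576 (0.996), Bfar (0.996), Slc1a7 (0.995) and Msx1 (0.991), chosen as the highest of all tested probes with a symbol. The other Bmpr2 probes had r of -0.67 (A_51_P518698) and 0.50 (A_55_P2943039) with it.

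Acvr2a and Acvr2b encode type II receptors shared by activins and BMPs. The brighter Acvr2a probe (A_55_P2503785, NM_007396, chromosome 2, 48758259 to 48758318) gave -0.98, -1.13 and -0.95 against -0.78, -0.72 and -1.06, and differed by -0.16 (SE 0.13, 95% interval -0.48 to 0.15, adjusted p = 0.500). The probe 2638 bases upstream gave -2.92, -3.02 and -2.98 against -2.49, -2.70 and -2.92, and differed by -0.27 (SE 0.14, adjusted p = 0.329). Its unadjusted p was under 0.05 in 4 alternatives, with differences of -0.44 after quantile normalization, -0.43 in the deposited table, -0.46 with median centring and -0.38 without labelled db/db replicate 3. Both Acvr2a probes overlapped between the groups through labelled db/db replicate 3, the array of that group with the lowest value. The third Acvr2a probe (A_52_P11800, AK050252, 48671567 to 48671626) was likewise dim on all 6 arrays.

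For Acvr2b, the brighter probe (A_55_P2012815, NM_007397, chromosome 9, 119342560 to 119342619) gave 2.27, 2.01 and 2.25 against 2.13, 2.16 and 1.93. These values overlapped, with a difference of 0.11 (SE 0.13, 95% interval -0.20 to 0.41, adjusted p = 0.652). The dimmer probe (A_65_P12695, XM_006511926, 119343711 to 119343770) gave -1.83, -2.15 and -1.76 against -2.24, -2.23 and -2.30. Its groups did not overlap, although labelled db/m replicate 2 lay close to the arrays labelled db/db, and the difference was 0.34 (SE 0.13, 95% interval 0.03 to 0.66, adjusted p = 0.266). Its unadjusted p was under 0.05, and it was not in 13 of 17 alternatives. The pair of Acvr2b probes, 1151 bases apart, differed in their change by 0.24 (exact permutation p = 0.1, adjusted 0.3).

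Among the co-receptors, Eng encodes endoglin, an endothelial glycoprotein that binds BMP9 and is mutated in hereditary haemorrhagic telangiectasia. Its brighter probe (A_55_P2040936, NM_001146350, chromosome 2, 32537268 to 32537327) gave 1.63, 1.74 and 1.84 against 1.59, 1.86 and 1.72. The groups overlapped, with a difference of 0.02 (SE 0.12, 95% interval -0.27 to 0.30, adjusted p = 0.950). The other Eng probe (A_55_P2719799, ENSMUST00000139770, 32505828 to 32505887) gave -3.57, -3.99 and -3.54 against -3.40, -2.02 and -3.66, with 2 of 3 arrays labelled db/m well above background. Labelled db/db replicate 2 again stood alone, at an intensity of 214.1, and the difference of -0.68 (SE 0.42, adjusted p = 0.399) became -0.18 without that array. With median centring it was -0.87, with an unadjusted p under 0.05. Endothelial markers summed to 64.8 to 86.0 in labelled db/m and 65.2 to 75.003 in labelled db/db on that linear scale, and 0 of the 10 had an unadjusted p under 0.05.

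Tgfbr3 encodes betaglycan, a proteoglycan co-receptor for TGF-β, inhibin and BMPs. Its single probe (A_65_P16059, NM_011578, chromosome 5, 107535818 to 107535877) gave 2.42, 1.30 and 2.31 in labelled db/m and 1.69, 1.5004 and 1.497 in labelled db/db. As for Acvrl1, labelled db/m replicates 1 and 3 were above every array labelled db/db and replicate 2 was below them all. The difference was 0.45 (SE 0.29, 95% interval -0.25 to 1.15, adjusted p = 0.422). Without labelled db/m replicate 2 it was 0.80 (SE 0.13, adjusted p = 0.0731), and the pair of arrays on slide 1 differed by 0.92. With that array left out, 23.2% of all probes had an unadjusted limma p under 0.05, and 59 had an adjusted p under 0.05.

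Rgmb, also called Dragon, encodes a membrane-anchored repulsive guidance molecule that binds BMP2 and BMP4. The brightest of its 5 probes (A_51_P501757, XM_006524863) gave -0.60, -1.13 and -0.69 against -0.74, -0.78 and -1.01, and differed by 0.03 (SE 0.17, 95% interval -0.37 to 0.44, adjusted p = 0.926). The probe 1675 bases from it (A_66_P107960, AK028583) gave -3.62, -1.07 and -3.47 against -4.26, -4.62 and -3.83. Its groups did not overlap, but 1 of 3 arrays labelled db/db was well above background, and labelled db/m replicate 2 had an intensity of 364.1 beside 83.9 and 86.2 in its group. The difference of 1.52 (SE 0.67, 95% interval -0.07 to 3.10, adjusted p = 0.292) fell to 0.69 without that array, to 1.104 with dim spots raised in the same way, and to 0.22 between the arrays of slide 1. Its unadjusted p was under 0.05 in 4 alternatives. These were median centring (1.33) and leaving out labelled db/m replicate 1 (1.965), 2 (0.69, SE 0.24) or 3 (1.893). The other Rgmb probes (A_52_P515869, A_52_P531949 and A_55_P2795573) were dim on all 6 arrays, at intensities of 11.8 to 48.1.

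Single arrays recurred among these values. Labelled db/m replicate 2 was the lowest of its group at 15 of the 19 tested probes, beside 29.5% of all probes, and labelled db/db replicate 3 was the lowest of its group at 13 of the 19, beside 46.1%. Labelled db/m replicate 2 was the lowest of all 6 arrays at 10 of the 19, whereas it was the lowest at 13.4% of all probes tested. Labelled db/db replicate 2 was the highest of all arrays at 8 of the 19 probes and at 27.1% of all probes. Across the 9 probe pairs, 3 had groups that did not overlap in the within-array difference (Bmpr2, Acvr1 and Acvr2b). The matching share over probe pairs of other genes was not computed, so this count cannot be called high or low. The lowest permutation p adjusted over the 9 exact tests was 0.3.

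The rest of the pathway was read from the brightest tested probe of each gene in 5 lists. Of the 14 BMP ligands, 7 were tested, and 2 had an unadjusted p under 0.05, both lower in labelled db/m, with a list median of 0.15. These were Bmp6, a ligand linked to iron balance, at -0.52 (SE 0.15), and Bmp7, a ligand that the adult kidney tubule makes, at -0.38 (SE 0.14). Bmp6 gave 1.52, 2.02 and 1.62 against 2.23, 2.33 and 2.15, and Bmp7 gave 3.39, 3.70 and 3.49 against 3.82, 4.12 and 3.79. Neither gene's groups overlapped.

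Of the 16 secreted antagonists and modulators, 12 were tested, with a median of 0.29, and 2 were higher and 1 lower at that p. Chrdl1, a chordin-like antagonist, differed by 1.37 (SE 0.40), with 1 of 3 arrays labelled db/db well above background, so that it entered the test through the group in which it was higher. With dim spots raised as for Bmpr2 it differed by 1.21 (SE 0.35). Its relative Chrdl2 differed by -0.94 (SE 0.28). For both of these genes the groups did not overlap.

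None of the 8 tested Smads and regulators of 9 passed that p, with a median of 0.02. Of the 14 BMP target genes 11 were tested, with a median of 0.30, and 2 were higher, Msx1 at 0.46 (SE 0.14) and Gata3 at 0.39 (SE 0.16), both transcription factors. Of the 9 other receptors and co-receptors of the TGF-β family on the array, 6 were tested, with a median of -0.13. Of these, 1 was lower, the TGF-β type I receptor Tgfbr1 at -0.33 (SE 0.13). No gene of these lists had a limma adjusted p under 0.05, and the number that passed unadjusted is to be read beside 17.7% of all probes.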

How the data were processed

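For every array the authors deposited the spot intensity values of Agilent Feature Extraction 10.7.1.1 (named in the submitters' processing notes). The software subtracted the background, corrected trends within the array and did not scale the arrays to each other. The authors also deposited a table of log2 values whose columns hold the same sorted values, as quantile normalization leaves them. The file of labelled db/m replicate 1 holds values rounded to about 3 significant digits. Probe coordinates are on mm9.

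Control spots and outlier flags were left out (135 probes), spots of a probe were averaged, and log2 intensity was set relative to the array's 75th percentile. Probes that every array of either group read well above background entered a fit with limma 3.58.1 (R 4.3.3, lmFit and eBayes), with Benjamini-Hochberg adjustment over all of them. Counts were made at an unadjusted p under 0.05 and with a difference of at least 1 as well, the thresholds of the study's screen. Probe pairs were compared by exact permutation (scipy 1.17.1, Python 3.11.15). The procedure was tested on simulated data. The number of arrays limits the precision.

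All probes of the 10 genes were named, with pathway genes at an unadjusted p under 0.05 and, for likeness, the 5 probes with the highest Pearson r to a member past the screen. The members and lists were chosen with earlier results of these data known. Alternatives covered normalization, background correction (normexp, offset 50), the filter on dim probes, the test, slide, replicate block, the deposited log2 table and leaving out each array. The study's text names analysis of variance in general and no array test. No columns of other samples were present. One gene of the pathway lists that the naming rule covers is not reported here, and it stays in the counts and medians.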

Additional observations from a re-analysis of the deposited data

How the results depend on the processing

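The Bmpr2 probe A_55_P2716027 stayed higher in labelled db/m, with an unadjusted p under 0.05, in all 17 alternatives. Several of these changed only the filter or the test and left its difference at 1.40. Its adjusted p was under 0.05 in none of them, and the lowest was 0.0971 (limma, without labelled db/db replicate 3). The count of receptor probes with an unadjusted p under 0.05, 3 of 19, was 1 with normexp background correction (15.9% of all probes), 1 with trend and robust variance (18.5%), 1 with slide as a block (9.71%) and 1 with the replicate block (21.9%). It ranged from 1 (replicate 2 of labelled db/db left out, 8.77% of all probes) to 5 (replicate 2 of labelled db/m left out, 23.2%). The count past the fold and p screen, 1, was 2 with median centring and ranged from 1 to 2 with single arrays left out (2 without labelled db/m replicate 1 or 3). The count of probes whose groups did not overlap, 4, was 1 with normexp and ranged from 4 to 9 with single arrays left out (9 without replicate 2 of labelled db/m or replicate 3 of labelled db/db, 7 without replicate 1 of labelled db/m), where the shares of all probes were 45.3%, 45.1% and 35.7%. Deviations from group means had r of 0.35, 0.15 and 0.05 between arrays of equal replicate number, and -0.34 to 0.15 between others. The main fit did not pair the arrays, and the replicate block moved the unadjusted count over all probes from 5282 to 6559. Among all probes, 59 had a limma adjusted p under 0.05 when replicate 2 of labelled db/m was left out, and 123 when replicate 3 of labelled db/db was.

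Median centring moved every difference by -0.19 alike, and so turned the sign of Acvr1 A_55_P2159710 (-0.16), Acvr2b A_55_P2012815 (-0.081), Acvrl1 A_52_P279329 (-0.082) and A_55_P2011380 (-0.0019), Eng A_55_P2040936 (-0.17) and Rgmb A_51_P501757 (-0.15). The slide block, which compares the arrays of slide 1 alone, turned Bmpr1a A_55_P2589310 (-0.082), Bmpr1b (1.001), Bmpr2 A_51_P518698 (0.053), Acvr1 A_55_P2102693 (0.083), Acvr2a A_52_P575854 (0.0039) and A_55_P2503785 (0.0845), and Eng A_55_P2040936 (-0.094) and A_55_P2719799 (0.084). Quantile normalization and the deposited table turned Bmpr2 A_51_P518698 (0.025 and 0.023), Acvrl1 A_52_P279329 (-0.049 and -0.047) and Rgmb A_51_P501757 (-0.0135 and -0.0146), and normexp turned Acvrl1 A_52_P279329 (-0.031). With single arrays left out, signs turned within -0.51 to 0.69 for Bmpr1b, -0.020 to 0.089 for Acvr1 A_55_P2159710, -0.052 to 0.084 for Eng A_55_P2040936 and -0.072 to 0.20 for Rgmb A_51_P501757. Apart from median centring and the slide block, the cause was not tested.

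Bmpr2 A_55_P2943039 lost its unadjusted p under 0.05 in 14 of 16 alternatives and Acvr2b A_65_P12695 in 13 of 17. With 3 arrays per group, intervals such as that of Bmpr1b reach past 2-fold, and the dim probes of Bmpr2, Eng and Rgmb stand near background.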
